A study of Drosophila melanogaster with 12 samples.

Results

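The proteasome subunit genes of cultured Drosophila melanogaster wing discs were followed across 4 levels of the moulting hormone 20-hydroxyecdysone (20E). They were taken as the table's genes whose symbol begins with Prosalpha, Prosbeta, Rpn or Rpt and a number, which gave 36 of 12216 genes. Of these, 34 reached a normalised count of 10 in 3 or more of the 12 libraries and are called the members here. They comprise 7 alpha ring genes, 7 beta ring genes, 6 ATPases of the base (Rpt1 to Rpt6), 4 scaffold and ubiquitin receptor genes of the base (Rpn1, Rpn2, Rpn10 and Rpn13), 8 lid genes and 2 paralogues (Prosbeta2R2 and Rpt3R). The rule itself uses gene symbols and this minimum, and it was set with earlier results of these data known.

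The proteasome is the protease that degrades proteins tagged with chains of ubiquitin. Its core is a barrel of stacked rings, with outer alpha rings that gate the entrance and inner beta rings that hold the active sites. A regulatory cap sits on the barrel: the ATPase ring of the base unfolds substrates, other base subunits bind ubiquitin, and the lid removes the ubiquitin chain. Subunits are assembled in fixed proportions, and in flies, as in mammals, their genes are known to be induced together when proteasome activity is impaired. In a growing imaginal disc, proteasomal degradation removes cyclins, patterning factors and damaged proteins.

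The libraries came from wing imaginal discs, the larval epithelium that forms the adult wing, of larvae with the genotype wildtype (w1118). Discs were taken 24 h after the moult to the third larval instar and kept for 2.5 h at 25 °C in culture medium with 0, 20, 200 or 2000 nM 20E, with 3 libraries at each dose. All 4 groups share the genotype, the stage and the culture, so the 0 nM discs are cultured discs without added hormone, not discs straight from the larva. The series title frames the question as how the ecdysone receptor acts at low and at high ligand. Nothing in the labels ties a replicate to its own culture or gives the number of discs in it, so the p-values rest on library-to-library spread that may be technical.

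Libraries held 9034719 to 27006374 reads, and 1 read was worth 0.565 to 1.69 normalised counts. All 6 wing disc epithelium markers looked up (nub, vg, sd, ap, Dll and wg) were present in every library, the lowest single value being 828 normalised counts for wg. Summed markers of trachea, neurons and glia, adult muscle precursors and blood cells differed between 2000 and 0 nM libraries without overlap, while those of fat body overlapped. Summed over 4 genes each, trachea markers ran from 5263 to 5736 in 2000 nM libraries and from 3603 to 4171 in 0 nM libraries, neuron and glia markers from 871 to 1064 in 2000 nM libraries and from 558 to 766 in 0 nM libraries, and adult muscle precursor markers from 1087 to 1319 in 2000 nM libraries and from 1451 to 1667 in 0 nM libraries. The neuron and glia sum was nearly all elav and moody, with nSyb at a median of 8.35 and repo at 0 in 6 of 12 libraries. The 4 blood cell markers summed to 25940 to 34579 in 2000 nM libraries and 2706 to 3828 in 0 nM libraries, but almost all of this was Ppn, while the plasmatocyte marker NimC1 was at 0 in 2 libraries and never above 4.71. Fat body markers summed to 50.7 to 114 in 2000 nM libraries and 24.5 to 1243 in 0 nM libraries, where Lsp1beta reached 1136 in replicate 3, and Fbp1 was at 0 in 2 libraries. The summed 6 wing disc markers also ran higher, from 31088 to 33881 in 2000 nM libraries and from 22709 to 24907 in 0 nM libraries. The part of cell makeup in the values below was not tested, and in whole discs fewer cells of a type cannot be told apart from less RNA per cell.

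Proteasome transcripts were abundant and close to each other in level. Levels between genes are given here per kb of annotated exon, as the mean over 12 libraries. The 31 canonical subunit genes other than Prosalpha1 ran from 1302 normalised counts per kb for Rpt6, an ATPase, to 3288 for Prosalpha2, an alpha ring subunit, with a median of 1874. The highest was 2.53 times the lowest. They stood between percentiles 91.4 and 97.4 of the 8419 tested genes with an exon length, whose median was 245 normalised counts per kb. On the log2 scale, the SD of these 31 levels was 0.38, beside 2.57 over the tested genes.

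Core particle genes were higher per kb than cap genes. The median was 2474 normalised counts per kb for 6 alpha ring genes and 2469 for the 7 beta ring genes, beside 1636 for the ATPases, 1580 for the base scaffolds and receptors and 1476 for the lid. The beta ring genes ranged from 2043 to 2965 and the lid genes from 1360 to 1874, so these 2 groups did not overlap, whereas the ATPases Rpt1, at 2253, and Rpt3 fell among the core genes. Exon length enters each of these levels, so a difference between genes per kb depends on the annotated transcript ends. Exons of a gene on the opposite strand covered at most 13.0% of a member's exon length, in Rpt6, and reads there cannot be told apart since the strand setting of the counting is not known. Over the 12 libraries, dose included, the coefficient of variation of the 31 abundant genes had a median of 6.55% and was at most 9.74%, beside a median of 12.1% for the tested genes. It was 33.5% for Prosalpha1, 23.6% for Rpt3R and 40.6% for Prosbeta2R2, which had few reads.

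**Figure D1:**
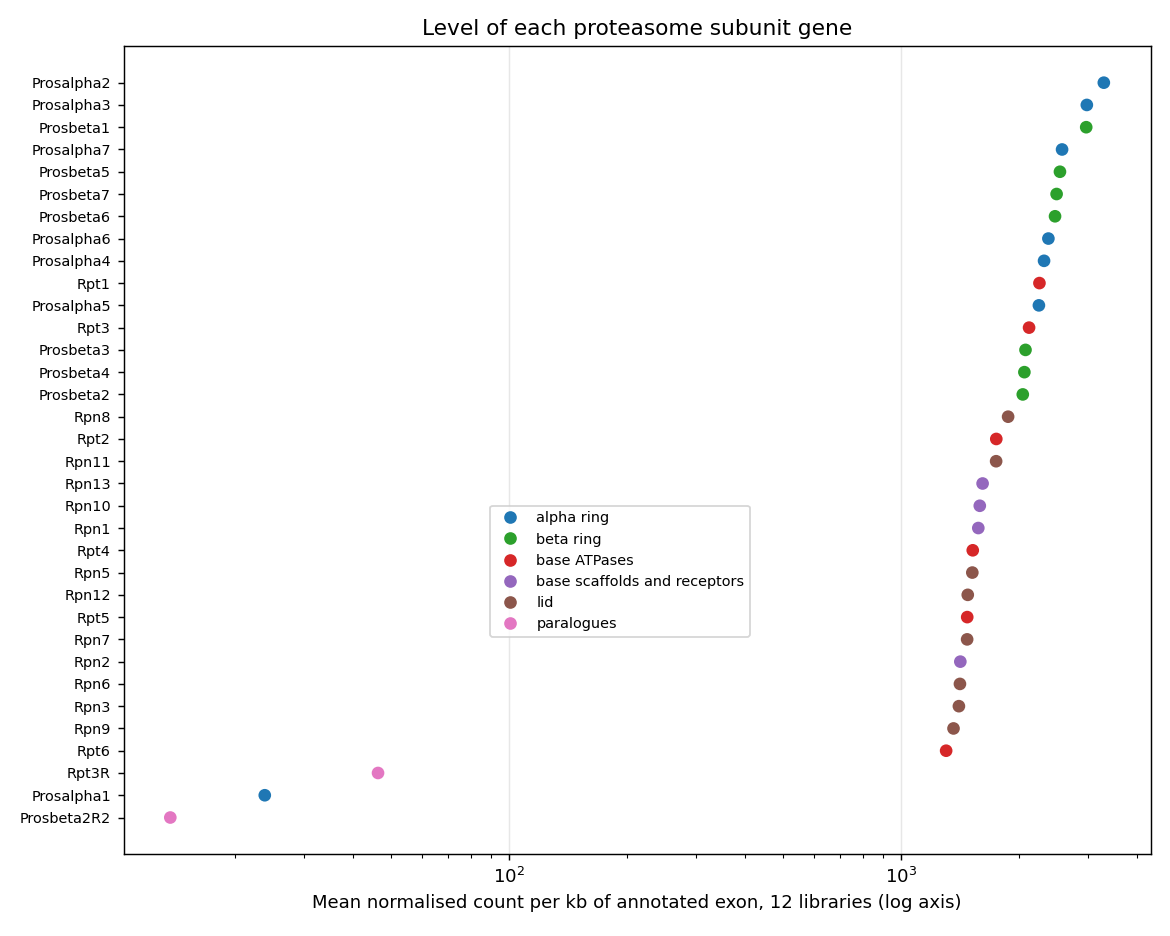
Mean level of each of the 34 members over 12 libraries, in normalised counts per kb of annotated exon on a log axis, coloured by role. The 31 abundant subunit genes sit between 1302 and 3288, and Rpt3R, Prosalpha1 and Prosbeta2R2 lie far below them at 46.3, 23.8 and 13.7.

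Another 3 genes of the group stood apart at the low end. Rpt3R, a paralogue of the ATPase Rpt3 described from the fly testis, had 46.3 normalised counts per kb, and Prosbeta2R2, a testis paralogue of the catalytic subunit Prosbeta2, had 13.7. Prosalpha1, which encodes a canonical alpha ring subunit, had only 23.8. A near-identical copy, Prosalpha1R, lies beside it in the genome and had no matching row among the deposited genes. Reads that match both copies cannot be assigned to one of them, so the level and changes of Prosalpha1 are uncertain. Its values were 31.4, 19.2 and 24.7 normalised counts at 0 nM, 11.8, 17.5 and 14.2 at 20 nM, 17.3, 32.8 and 33.5 at 200 nM and 26.8, 17.4 and 30.04 at 2000 nM, from 7 to 45 reads in a library. The 20 nM values all lay under the 0 nM values, but the difference did not pass the test (log2 fold change -0.74 ± 0.33, adjusted p = 0.379).

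The minimum on low values left out 2 further paralogues, both at the level of a few reads. Rpn13R, a paralogue of the ubiquitin receptor Rpn13, had at most 9 reads and 6.75 normalised counts in a library. Prosbeta2R1, another testis paralogue of Prosbeta2, had 6 reads in all, 5 of them in replicate 1 at 0 nM. In the libraries without a read, a count of 0 allows up to 3 reads, which is 1.70 to 5.06 normalised counts depending on the library, and this covers counting error only. The members just inside the minimum were Prosbeta2R2 and Prosalpha1, with 8 to 48 and 7 to 45 reads in a library.

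Summed over the 34 members, proteasome transcripts differed little between doses. The sum was 74693, 80426 and 79024 normalised counts at 0 nM, 76054, 83435 and 83596 at 20 nM, 84055, 82129 and 83363 at 200 nM, and 82360, 90129 and 84157 at 2000 nM. All 200 nM and all 2000 nM libraries lay above all 0 nM libraries, while the 20 nM libraries overlapped both neighbours. The means were 78048 ± 2989, 81028 ± 4309, 83182 ± 976 and 85549 ± 4067 at 0, 20, 200 and 2000 nM (SD, n = 3 each). This made up 0.497% to 0.575% of a library's total.

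**Figure D2:**
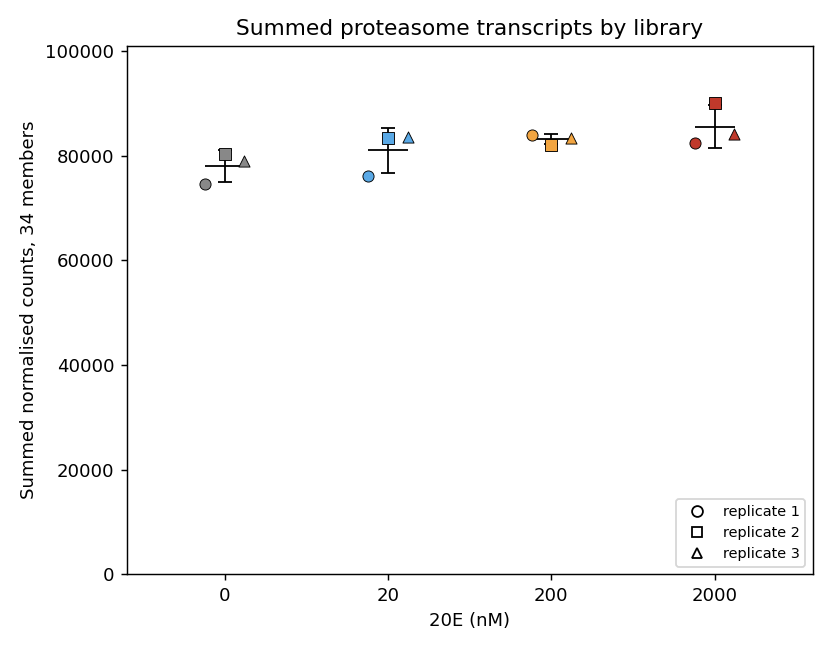
Summed normalised counts of the 34 members by 20E dose in nM. Each symbol is 1 library with its replicate number, and the line and bars give the mean and SD of 3 libraries; the 200 and 2000 nM libraries all lie above the 0 nM libraries, which reach 80426.

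At the highest dose a part of the group passed the test, every call being a small increase. At 2000 nM against 0 nM, 9 of 34 members rose (26.5%) and 0 fell, on limma's moderated test adjusted over the 8455 genes tested. Among all tested genes 15.4% rose and 15.5% fell, so 31.0% changed in either direction. The share of members that rose was above the share of all genes that rose in this fit, but not in each of the others given here, and the share of members that changed was below the share of all genes that changed. The 9 were Rpn10, Rpt5, Rpn8, Prosbeta2, Rpt2, Rpn3, Rpt3R, Rpn1 and Rpn13. Their number depended on single libraries. It was 2 of 34 (5.88%, beside 14.0% of all tested genes that rose) without replicate 1 at 0 nM, 3 (8.82%, beside 11.4%) without replicate 3 at 0 nM, 4 (11.8%, beside 14.2%) without replicate 2 at 20 nM and 2 (5.88%, beside 15.3%) without replicate 2 at 2000 nM, all below the share of all genes. It was 5 (14.7%) without replicate 3 at 20 nM, level with the 14.7% of all genes, and 5 without replicate 3 at 2000 nM, above the 11.7% of all genes. The other left-out fits were also above the share of all genes. The number was 7 (20.6%, beside 14.6%) without replicate 2 at 0 nM and 9 (26.5%, beside 15.9%) without replicate 1 at 20 nM. It was 8 (23.5%, beside 14.4% to 15.4%) without any 1 library at 200 nM, and 6 (17.6%, beside 13.2%) without replicate 1 at 2000 nM. When only the 0 and 2000 nM libraries were fitted, 2 members rose (5.88%), below the 12.8% of all genes. With no minimum on low values 4 rose (11.8%, beside 10.6%), and 5 rose (14.7%) both after TMM rescaling (beside 15.0%) and with equal library totals (beside 14.0%). Without the intensity trend 5 rose (14.7%, beside 14.0%). By limma-voom on recovered reads 10 rose (29.4%, beside 17.1%), and with a block for the replicate number 13 rose (38.2%, beside 18.0%).

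Below the threshold, the members as a group lay to one side of 0. Of the 34, 32 had a log2 fold change above 0 at 2000 nM, beside 49.4% of all tested genes, and 17 had 2000 nM libraries that all lay above the 0 nM libraries, beside 20.7% of all tested genes, while 0 lay lower (21.0% of all tested genes). An unadjusted p under 0.05 was found for 14 members, beside 41.2% of all tested genes. The median log2 fold change was 0.14, or 1.10-fold, beside a median of -0.00 over all tested genes. With either other scaling the median was 0.12 or 0.13 and at least 31 members stayed above 0. The members are not independent of each other within a library. Replicate 2 at 2000 nM was the highest of its dose for 27 of 34 members, beside 37.2% of all tested genes, and replicate 1 at 0 nM was the lowest for 26, beside 35.7%. Without the first of these libraries the median was 0.12, and without the second it was also 0.12.

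At the lower doses 0 members passed, and most log2 fold changes lay above 0. At 200 nM against 0 nM, 0 of 34 members passed limma's adjusted threshold, beside 20.4% of all tested genes, and 4 members had an unadjusted p under 0.05 (30.9% of all tested genes); limma-voom on recovered reads also called 0. Leaving out replicate 2 at 0 nM gave 1 call there, and leaving out replicate 1 at 20 nM gave 2. The median log2 fold change was 0.09, with 33 of 34 above 0 (50.7% of all tested genes) and 10 whose libraries lay higher without overlap and 0 lower (17.1% and 17.4% of all tested genes). The nearest to the threshold were Prosbeta2, at 0.20 ± 0.07 and adjusted p = 0.052, and Rpn10, at 0.21 ± 0.08 and adjusted p = 0.0597. At 20 nM against 0 nM, again 0 passed, beside 4.51% of all tested genes, with 2 at an unadjusted p under 0.05 (12.1% of all tested genes) and 0 by limma-voom. There the median was 0.07, with 30 of 34 above 0 (49.5% of all tested genes), but 2 members lay higher without overlap and 1 lower (9.06% and 8.18% of all tested genes). The 20 nM median depended on single libraries: it was 0.03 with 23 of 34 above 0 without replicate 1 at 0 nM, 0.03 with 27 of 34 without replicate 3 at 20 nM, and 0.11 with 32 of 34 without replicate 1 at 20 nM. These comparisons share the 0 nM libraries, so a low 0 nM library would raise all of them.

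Steps between hormone doses do not use the 0 nM libraries. At 200 nM against 20 nM, 0 members passed limma's threshold, beside 4.23% of all tested genes that rose and 3.76% that fell, and 2 members had an unadjusted p under 0.05 (18.5% of all tested genes). At 2000 nM against 200 nM, 0 passed, beside 0.166% that rose and 0.0355% that fell, and 0 had an unadjusted p under 0.05 (10.9% of all tested genes). At 2000 nM against 20 nM, 0 passed, beside 8.30% that rose and 8.04% that fell, and 6 had an unadjusted p under 0.05 (28.6% of all tested genes). In each of these limma-voom called 0. The median log2 fold change was 0.03, 0.05 and 0.09 in that order. Replicate 1 at 20 nM was the lowest of its dose for 30 of 34 members, beside 40.9% of all tested genes. Without it, the median of 200 nM against 20 nM was -0.01 and that of 2000 nM against 20 nM was 0.04. Without replicate 2 or 3 at 20 nM, the median of 200 nM against 20 nM was 0.05 or 0.06. Without replicate 2 at 2000 nM, the median of 2000 nM against 200 nM was 0.01 and that of 2000 nM against 20 nM was 0.06, and without replicate 2 at 200 nM the median of 2000 nM against 200 nM was 0.03. Without replicate 1 at 2000 nM, 1 member passed at 2000 nM against 20 nM. Across the 4 doses, the mean was higher at each of the 3 steps for 18 of 34 members, beside 18.7% of all tested genes. The F test for a difference at any dose called 1 member, Rpn10 (adjusted p = 0.0397), beside 23.7% of all tested genes, and 0 without any 1 of replicates 1 and 3 at 0 nM, the 3 libraries at 200 nM and replicate 3 at 2000 nM.

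**Figure D3:**
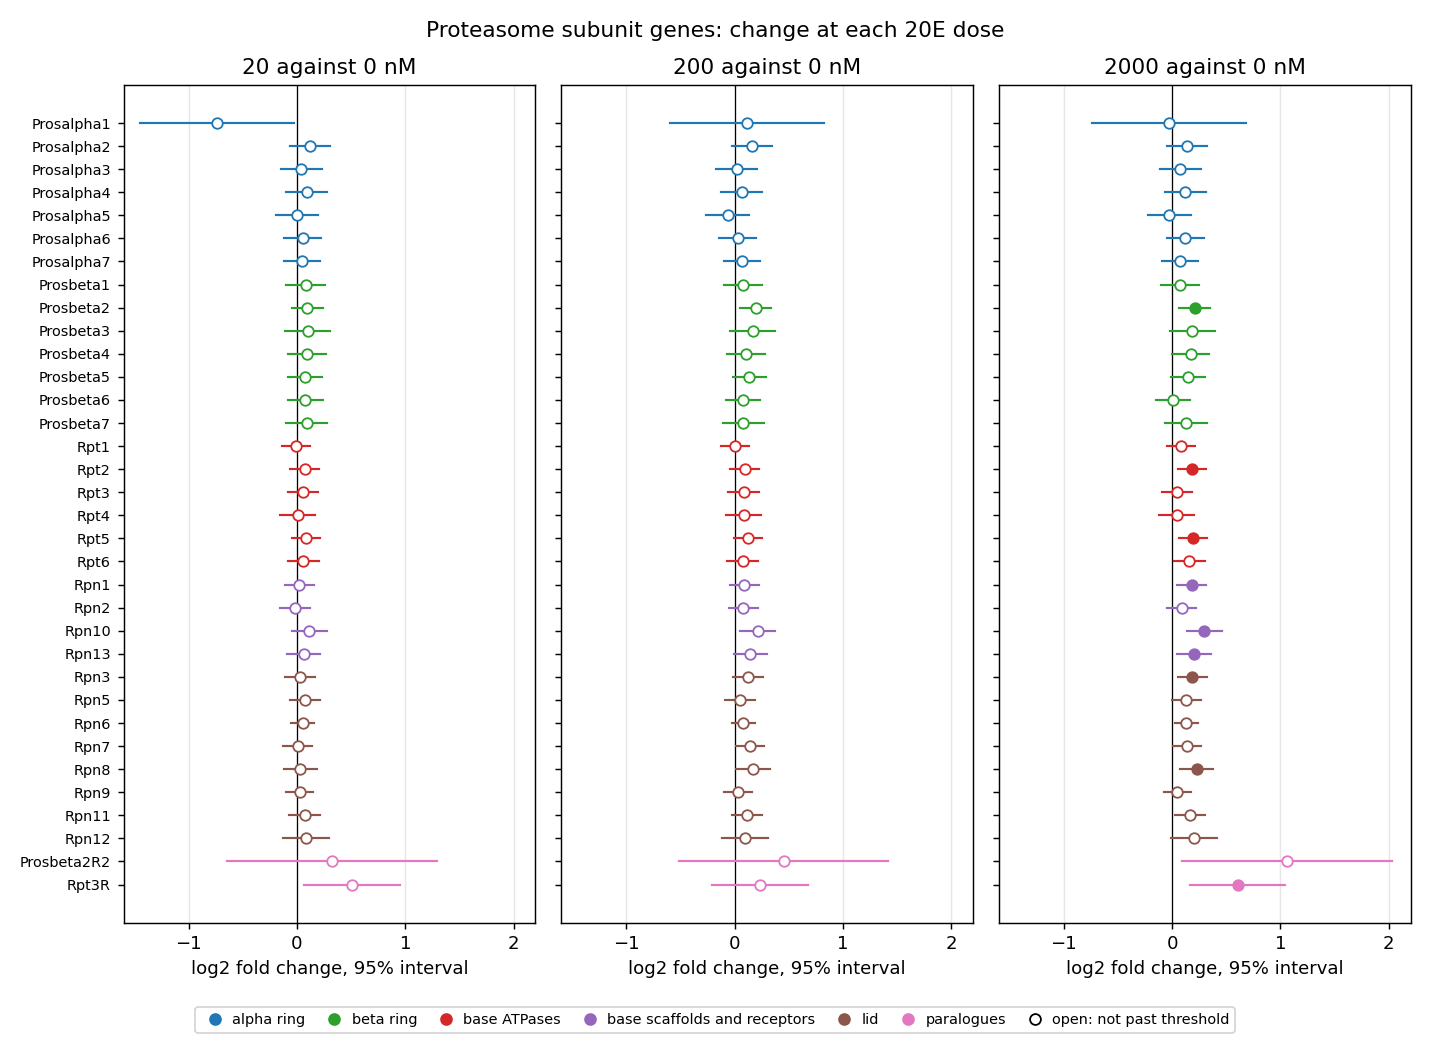
Log2 fold change of each member against 0 nM at 20, 200 and 2000 nM 20E, with the 95% interval from limma, coloured by role; filled points passed the adjusted threshold. No point is filled at 20 or 200 nM and 9 are at 2000 nM, and the intervals of the 3 low members (Prosalpha1, Prosbeta2R2 and Rpt3R) are several times wider than the rest.

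The 4 scaffold and ubiquitin receptor genes of the base had the highest median among the roles of canonical subunits. At 2000 nM, 3 of these 4 rose, their median log2 fold change was 0.19, and all 4 had 2000 nM libraries above every 0 nM library. Of all tested genes, 15.4% rose and 20.7% lay higher without overlap. Rpn10, a receptor that binds polyubiquitin chains and holds base and lid together, had 1893, 2170 and 1993 normalised counts at 0 nM, 1960, 2285 and 2321 at 20 nM, 2351, 2300 and 2366 at 200 nM and 2403, 2635 and 2402 at 2000 nM. The 200 and 2000 nM libraries were all above the 0 nM libraries, and the lowest 2000 nM library was above the highest 200 nM library. Rpn10 averaged 2480 ± 134 at 2000 nM and 2019 ± 140 at 0 nM (SD, n = 3 each), and the log2 fold change was 0.30 ± 0.08 (adjusted p = 0.00807), or 1.23-fold. It was the only one of the 9 called members that passed in all 22 alternative fits, with adjusted p from 0.00231 to 0.0361.

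Rpn13, the second ubiquitin receptor of the base, had 2415, 2618 and 2489 normalised counts at 0 nM, 2446, 2671 and 2739 at 20 nM, 2808, 2882 and 2635 at 200 nM and 2639, 3100 and 2929 at 2000 nM. All 2000 nM libraries were above all 0 nM libraries, and the log2 fold change of 0.20 ± 0.07 was just past the threshold (adjusted p = 0.0457). Rpn1, a scaffold that docks shuttle proteins carrying ubiquitinated substrates, had 4700, 4444 and 4487 at 0 nM, 4431, 4755 and 4636 at 20 nM, 5220, 4661 and 4623 at 200 nM and 5215, 5230 and 5005 at 2000 nM. Its 2000 nM libraries were all above the 0 and 20 nM libraries, 1 library at 200 nM reached their range, and the log2 fold change was 0.18 ± 0.06 (adjusted p = 0.0399). Rpn2, the other large scaffold, had 4742, 4723 and 4633 at 0 nM, 4822, 4568 and 4527 at 20 nM, 5250, 5053 and 4637 at 200 nM and 5267, 4960 and 4774 at 2000 nM. Its log2 fold change at 2000 nM was 0.09 ± 0.06, which did not pass (adjusted p = 0.32). Rpn1 and Rpn13 passed in 10 and 8 of 22 alternative fits. Rpn1 lost its call without any 1 of replicates 2 and 3 at 0 nM, replicates 2 and 3 at 20 nM and the 3 libraries at 2000 nM, and Rpn13 without any 1 of replicates 1 and 3 at 0 nM, replicates 2 and 3 at 20 nM, the 3 libraries at 200 nM and replicates 2 and 3 at 2000 nM.

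In the lid, 2 of 8 genes rose at 2000 nM, with a median log2 fold change of 0.15 and 6 of 8 higher without overlap (15.4% and 20.7% of all tested genes). Rpn8 is the partner of the deubiquitinase Rpn11 in the lid. It had 2519, 2700 and 2763 normalised counts at 0 nM, 2493, 2769 and 2892 at 20 nM, 2938, 3060 and 2975 at 200 nM and 2895, 3343 and 3107 at 2000 nM. The 0 and 20 nM libraries overlapped, and the 200 and 2000 nM libraries all lay above both. The log2 fold change was 0.23 ± 0.07 at 2000 nM (adjusted p = 0.0268) and 0.17 ± 0.07 at 200 nM (adjusted p = 0.119). The call was lost without replicate 1 at 0 nM or without replicate 2 or 3 at 2000 nM.

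Rpn3, a lid scaffold subunit, had 2345, 2468 and 2447 normalised counts at 0 nM, 2422, 2478 and 2497 at 20 nM, 2833, 2619 and 2465 at 200 nM and 2834, 2839 and 2594 at 2000 nM. Its 2000 nM libraries were above all 0 and 20 nM libraries, at a log2 fold change of 0.19 ± 0.06 (adjusted p = 0.0381). It passed in 10 of 22 alternative fits and lost its call without any 1 of the 3 libraries at 0 nM, replicates 2 and 3 at 20 nM and replicates 1 and 2 at 2000 nM. Rpn6, which clamps the lid to the alpha ring, had close replicates: 2605, 2648 and 2615 at 0 nM, 2747, 2758 and 2656 at 20 nM, 2759, 2807 and 2746 at 200 nM and 2930, 2815 and 2874 at 2000 nM. Every hormone library was above every 0 nM library, but the log2 fold change of 0.13 ± 0.05 missed the threshold (adjusted p = 0.0592). Rpn9 was the lid gene with the lowest log2 fold change, 0.05 ± 0.06, with 2136, 2301 and 2287 at 0 nM, 2184, 2366 and 2291 at 20 nM, 2305, 2269 and 2302 at 200 nM and 2227, 2448 and 2281 at 2000 nM, with overlap between the doses. Rpn11, the deubiquitinase that cuts the ubiquitin chain off, averaged 2222 ± 73.7 at 2000 nM and 1988 ± 155 at 0 nM (SD, n = 3 each), at 0.16 ± 0.07 (adjusted p = 0.0741). The remaining lid genes Rpn5, Rpn7 and Rpn12 had log2 fold changes of 0.13, 0.14 and 0.20 and did not pass.

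Of the 6 ATPases that unfold substrates, 2 rose at 2000 nM, with a median log2 fold change of 0.12 and 3 higher without overlap (15.4% and 20.7% of all tested genes). Rpt5 had 2207, 2293 and 2199 normalised counts at 0 nM, 2267, 2482 and 2354 at 20 nM, 2579, 2324 and 2401 at 200 nM and 2530, 2640 and 2503 at 2000 nM. The 2000 nM libraries lay above all 0 and 20 nM libraries, and 1 library at 200 nM reached into their range. The log2 fold change was 0.20 ± 0.06 (adjusted p = 0.0226), and the call was lost without replicate 1 or 3 at 0 nM or replicate 2 at 2000 nM. Rpt2, the ATPase whose tail opens the gate of the core in yeast, had 2608, 2727 and 2678 at 0 nM, 2661, 2902 and 2857 at 20 nM, 2979, 2827 and 2747 at 200 nM and 2930, 3248 and 2930 at 2000 nM. All 200 and 2000 nM libraries were above the 0 nM libraries, with 0.18 ± 0.06 at 2000 nM (adjusted p = 0.038), a call that was lost without any 1 of the 3 libraries at 0 nM, replicates 2 and 3 at 20 nM and replicate 2 at 2000 nM.

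The other ATPases did not pass. Rpt4 had the lowest log2 fold change of them, 0.04 ± 0.07, with 2083, 2208 and 2238 normalised counts at 0 nM, 1995, 2261 and 2319 at 20 nM, 2318, 2276 and 2324 at 200 nM and 2113, 2486 and 2146 at 2000 nM. Its 200 nM libraries lay above 0 nM while its 2000 nM libraries reached from within the 0 nM range to above it. Rpt6 averaged 1937 ± 63.9 at 2000 nM and 1737 ± 84.6 at 0 nM (SD, n = 3 each), with libraries that did not overlap and an adjusted p of 0.0891. Rpt1 and Rpt3 had log2 fold changes of 0.08 and 0.05.

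Among the beta ring genes, which hold the proteolytic sites, 1 of 7 rose at 2000 nM, with a median log2 fold change of 0.15 and 3 higher without overlap (15.4% and 20.7% of all tested genes). That gene was Prosbeta2, the trypsin-like active subunit. It had 1813, 2006 and 1979 normalised counts at 0 nM, 1891, 2206 and 2108 at 20 nM, 2221, 2215 and 2205 at 200 nM and 2199, 2330 and 2174 at 2000 nM. The 200 nM libraries were nearly equal, and all 200 and 2000 nM libraries were above the 0 nM libraries. The log2 fold change was 0.21 ± 0.07 (adjusted p = 0.0282) at 2000 nM, close to that at 200 nM, and the call was lost without replicate 1 at 0 nM or replicate 2 at 2000 nM.

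The other catalytic subunits did not pass. Prosbeta5, the chymotrypsin-like subunit, averaged 3014 ± 114 at 2000 nM and 2719 ± 185 at 0 nM (SD, n = 3 each), at 0.15 ± 0.07 (adjusted p = 0.135), with libraries that did not overlap. Prosbeta1, the caspase-like subunit, averaged 2551 ± 163 at 2000 nM and 2429 ± 205 at 0 nM (SD, n = 3 each), at 0.07 ± 0.08 (adjusted p = 0.556), with libraries that overlapped. Prosbeta6, a structural subunit, had the lowest value of the ring at 0.01 ± 0.07: 2156, 2251 and 2383 at 0 nM, 2258, 2426 and 2481 at 20 nM, 2329, 2322 and 2517 at 200 nM and 2116, 2523 and 2206 at 2000 nM, with the lowest and the highest of these values in 2000 nM libraries. Prosbeta3, Prosbeta4 and Prosbeta7 had 0.18, 0.17 and 0.13.

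Of the 7 alpha ring genes, 0 passed at 2000 nM, beside 15.4% of all tested genes that rose and 15.5% that fell. Also 0 of the 7 had 2000 nM libraries above all 0 nM libraries, beside 20.7% of all tested genes. The median log2 fold change was 0.08. Prosalpha2 was the highest, with 2585, 2965 and 2884 normalised counts at 0 nM, 2682, 3197 and 3298 at 20 nM, 3029, 3198 and 3177 at 200 nM and 2880, 3345 and 3065 at 2000 nM. The 200 nM libraries lay above 0 nM and the 2000 nM libraries did not, at 0.14 ± 0.08 (adjusted p = 0.24). Prosalpha5 had 2024, 2253 and 2182 at 0 nM, 1899, 2229 and 2349 at 20 nM, 2057, 1972 and 2144 at 200 nM and 1915, 2396 and 2047 at 2000 nM. These libraries overlapped at every dose, and the log2 fold change of -0.03 ± 0.09 had a 95% interval of -0.23 to 0.17, whose upper bound lies just under the smallest called change of 0.18. Prosalpha3, Prosalpha4, Prosalpha6 and Prosalpha7 lay between 0.07 and 0.12. Differences between the roles were not tested.

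**Figure D4:**
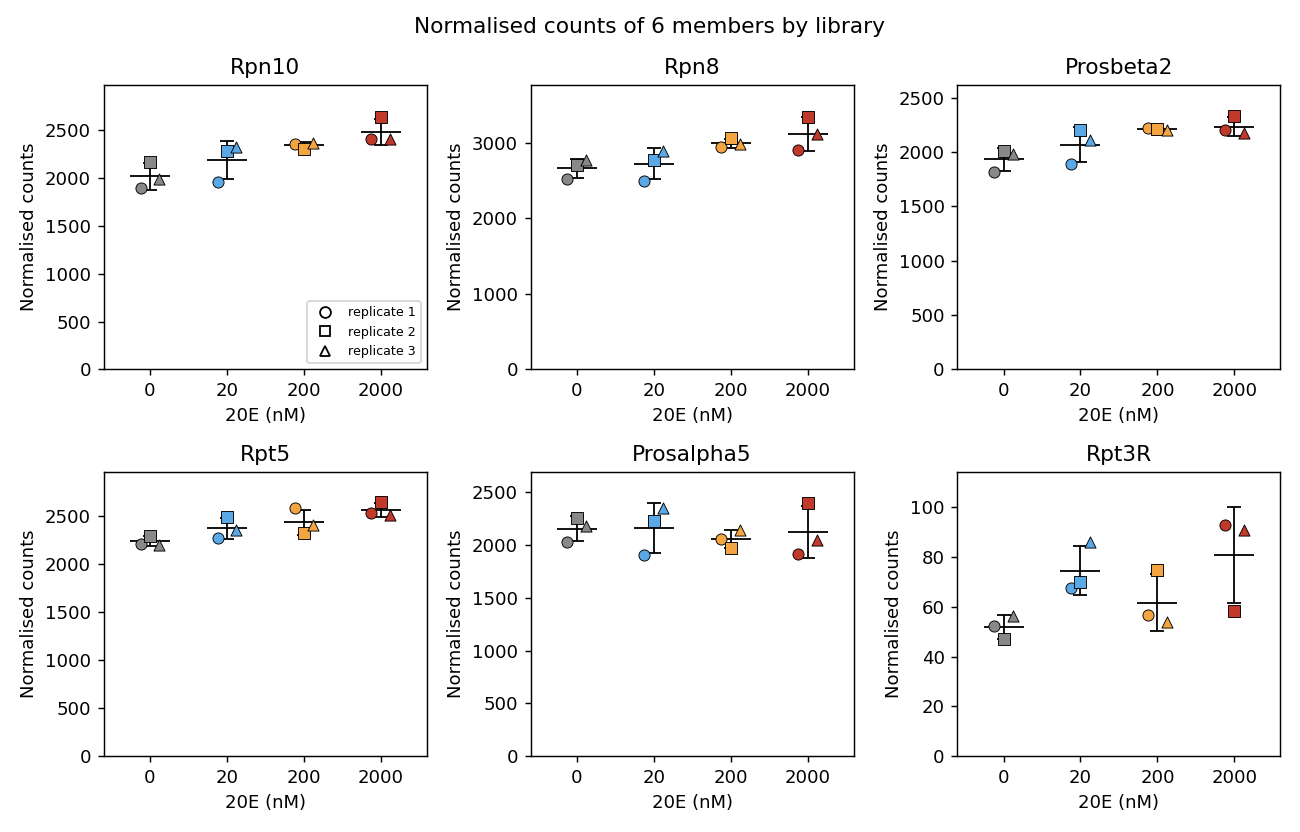
Normalised counts by library and 20E dose in nM for 6 members, with the mean and SD of 3 libraries per dose; each axis starts at 0. Rpn10, Rpn8, Prosbeta2, Rpt5 and Rpt3R have 2000 nM libraries that all lie above the 0 nM libraries, and Prosalpha5 has libraries that overlap at every dose.

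The testis paralogues had larger folds on far fewer reads. Rpt3R had 52.4, 46.9 and 56.3 normalised counts at 0 nM, 67.5, 70.1 and 85.9 at 20 nM, 56.5, 74.6 and 53.8 at 200 nM and 93.0, 58.5 and 90.9 at 2000 nM. The 20 and 2000 nM libraries all lay above 0 nM, while the 200 nM libraries overlapped it, so the values did not follow the order of doses. It rose at 2000 nM, at 0.60 ± 0.21 on the log2 scale or 1.52-fold (adjusted p = 0.0389), and lost its call without any 1 of the 3 libraries at 0 nM, replicate 2 at 20 nM and replicates 1 and 3 at 2000 nM. Prosbeta2R2 had 14.4, 21.3 and 5.06 at 0 nM, 21.9, 12.4 and 12.2 at 20 nM, 20.4, 17.9 and 12.2 at 200 nM and 28.6, 19.0 and 30.8 at 2000 nM. Its libraries overlapped, and 1.06 ± 0.45 did not pass (adjusted p = 0.0911). The 6 testis and germ line markers in the table summed to 16.7 to 31.5 normalised counts in 2000 nM libraries and 19.0 to 30.1 in 0 nM libraries, and nos, Mst87F and dj were at 0 in 4, 5 and 6 of 12 libraries.

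The authors' deposited table holds a test over the 4 doses for each gene. In the authors' deposited table, 5 of 34 members had an adjusted p under 0.05, beside 28.4% of the tested genes. By the authors' deposited table these were Rpn10 (0.00123), Rpn8 (0.00145), Prosbeta2 (0.0174), Rpn13 (0.0445) and Rpn1 (0.0459), and Rpn10 had a log2 fold change of 0.30. All 5 are among the 9 members called here at 2000 nM.

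Genes that act with the proteasome were taken from 5 lists with 40 members, 39 of them tested. Their median log2 fold changes at 2000 nM were 0.07 for assembly factors and activators, -0.02 for ubiquitin genes, 0.11 for shuttles and unfoldases, 0.15 for regulators of proteasome gene expression and -0.14 for SCF and APC/C ligases, beside -0.00 over all tested genes. The list of 6 assembly factors and activators also holds Sem1, a lid subunit whose symbol lies outside the rule for members. Of these 6 genes, 0 passed limma's threshold at any dose, beside 4.51%, 20.4% and 31.0% of all tested genes at 20, 200 and 2000 nM. An unadjusted p under 0.05 was found for 1 at 2000 nM, beside 41.2% of all tested genes, and for 0 at the lower doses. Here limma-voom also called 0. Pomp, the chaperone of core assembly, had a log2 fold change of 0.18 ± 0.10 at 2000 nM (adjusted p = 0.2). REG, the activator cap that works without ATP, had -0.19 ± 0.08 (adjusted p = 0.0736), with 2764, 3215 and 2967 normalised counts at 2000 nM and 3185, 3518 and 3528 at 0 nM. Of 7 shuttles and unfoldases, 0 passed at any dose, beside the same shares of all tested genes, with 0 at an unadjusted p under 0.05 and 0 by limma-voom. For 3 of the 7, all 2000 nM libraries lay above all 0 nM libraries, beside 20.7% of all tested genes, and for 0 they lay below, beside 21.0%. TER94, the unfoldase that extracts ubiquitinated proteins, had 0.11 ± 0.06 at 2000 nM (adjusted p = 0.191).

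Ubiquitin itself comes from polyubiquitin genes and from fusions with ribosomal proteins. Of 6 genes for ubiquitin, its activating enzyme and its recycling, 0 passed limma's threshold at 20 or 2000 nM, beside 4.51% and 31.0% of all tested genes. At these doses 0 had an unadjusted p under 0.05 and limma-voom called 0. At 200 nM 1 rose, beside 9.92% of all tested genes, which was Ubi-p5E, a polyubiquitin gene. It had 983, 1151 and 1311 normalised counts at 0 nM, 1233, 1096 and 1057 at 20 nM, 1837, 1704 and 1453 at 200 nM and 1242, 1532 and 1073 at 2000 nM. Its 200 nM libraries were above all 0 and 20 nM libraries, at 0.54 ± 0.13 (adjusted p = 0.00939), whereas 2000 nM gave 0.15 ± 0.13 (adjusted p = 0.424). The other polyubiquitin gene, Ubi-p63E, had 0.33 ± 0.15 at 200 nM and 0.31 ± 0.15 at 2000 nM and did not pass. The fusion genes RpL40 and RpS27A had -0.03 and -0.01 at 2000 nM.

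Larger changes lay in the genes of the Cap'n'collar pathway, named in the list of regulators of proteasome gene expression. Of its 5 genes, 1 rose at 20 nM, beside 2.97% of all tested genes, 2 at 200 nM, beside 9.92%, and 2 at 2000 nM, beside 15.4%. In flies, the transcription factor encoded by cnc induces proteasome and antioxidant genes, and Keap1 holds it in check. The gene cnc had 3027, 2772 and 2731 normalised counts at 0 nM, 3957, 3528 and 3258 at 20 nM, 5946, 3928 and 5220 at 200 nM and 6366, 5371 and 5836 at 2000 nM. Every hormone library was above every 0 nM library, with log2 fold changes of 0.33 ± 0.12 at 20 nM (adjusted p = 0.238), 0.80 ± 0.12 at 200 nM (adjusted p = 0.00028) and 1.04 ± 0.12 at 2000 nM (adjusted p = 1.88e-05). The cnc gene gives several protein isoforms, which gene counts do not separate.

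Keap1 had 115.2, 117 and 121 normalised counts at 0 nM, 164, 171 and 163 at 20 nM, 295, 303 and 251 at 200 nM and 268, 269 and 261 at 2000 nM. It rose at each dose, by 0.49 ± 0.10 (adjusted p = 0.00739), 1.25 ± 0.10 (adjusted p = 2.97e-07) and 1.17 ± 0.10 (adjusted p = 5.16e-07) on the log2 scale at 20, 200 and 2000 nM. The remaining genes of the list did not pass at 2000 nM. The small Maf partner maf-S had 0.15 ± 0.08, and Pngl and rngo, whose relatives process the Cap'n'collar-type factor in mammals, had 0.11 ± 0.06 and -0.12 ± 0.06. Beside the near 2-fold rise of cnc and Keap1, the median change of the 34 proteasome members at 2000 nM was 1.10-fold.

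**Figure D5:**
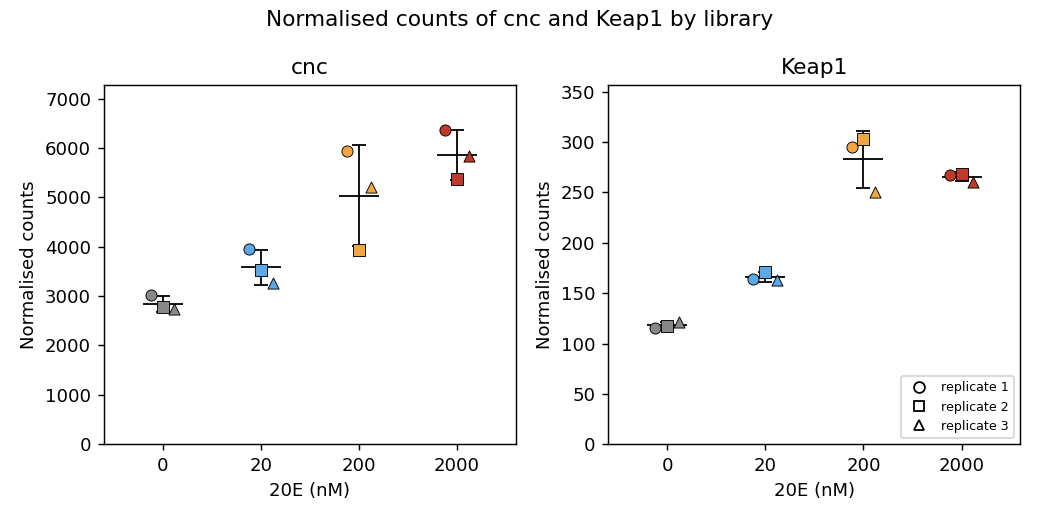
Normalised counts of cnc and Keap1 by library and 20E dose in nM, with the mean and SD of 3 libraries per dose and axes from 0. Every hormone library of both genes lies above every 0 nM library, and Keap1 is as high at 200 nM (251 to 303) as at 2000 nM (261 to 269).

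Among ubiquitin ligase genes of the cell cycle, the share called at 2000 nM was close to that of all tested genes. Of 15 tested SCF and APC/C genes, 0 passed limma's threshold at 20 nM, beside 4.51% of all tested genes (0 at an unadjusted p under 0.05, 0 by limma-voom). Then 1 rose and 1 fell at 200 nM, beside 9.92% and 10.4% of all tested genes, and 2 rose and 3 fell at 2000 nM. At 2000 nM 33.3% of the 15 were thus called, beside 31.0% of all tested genes (15.4% rose and 15.5% fell). The F-box genes slmb and ago, which select substrates for the SCF ligase, rose at 2000 nM by 0.28 ± 0.06 (adjusted p = 0.00388) and 0.30 ± 0.07 (adjusted p = 0.00633). Skp2, another F-box gene of the list, did not pass. It averaged 1117 ± 112 normalised counts at 2000 nM and 1277 ± 64.0 at 0 nM (SD, n = 3 each). The values of slmb were 2535, 2624 and 2687 normalised counts at 2000 nM and 2233, 2146 and 2077 at 0 nM, without overlap, and those of ago were 5353, 4815 and 4662 at 2000 nM and 4256, 3844 and 3973 at 0 nM, also without overlap. The gene ago also rose at 200 nM (0.30 ± 0.07, adjusted p = 0.00792).

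On the side of the APC/C, the ligase that drives exit from mitosis, 3 of the 15 listed genes fell, beside 15.5% of all tested genes. The other tested genes of this side, fzr, shtd, mr, Cdc16, Cdc23 and Cdc27, did not pass. The means of mr and Cdc27 were higher at 2000 nM (745 and 1621) than at 0 nM (684 and 1474). Those of fzr, shtd, Cdc16 and Cdc23 were lower. APC4, a subunit, had 321, 310 and 261 normalised counts at 2000 nM and 452, 380 and 456 at 0 nM, and fell by 0.53 on the log2 scale (SE 0.11, adjusted p = 0.00279). The subunit gene ida had 357, 281 and 336 at 2000 nM and 441, 439 and 474 at 0 nM, at -0.48 ± 0.11 (adjusted p = 0.0054), and also fell at 200 nM, a call lost without replicate 3 at 0 nM or replicate 2 at 200 nM. The activator fzy, the fly Cdc20, had 1496, 1457 and 1202 at 2000 nM and 1841, 1630 and 1696 at 0 nM, at -0.32 ± 0.08 (adjusted p = 0.0105), and it missed the threshold without replicate 3 at 2000 nM. For APC4, ida and fzy all 2000 nM libraries lay below all 0 nM libraries. The number of SCF and APC/C genes called at 200 nM was 1 without replicate 3 at 0 nM and 1 without replicate 2 at 200 nM. It was 4 without replicate 3 at 2000 nM. In these fits 697, 705 and 850 of the 8455 tested genes rose, and 716, 697 and 898 fell.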

How the data were processed

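Poly(A) RNA libraries (the labels also say total RNA) were sequenced from 12 samples in 4 doses. Per the submitters' processing notes, the authors ran DESeq2 (1.32.0), Subread (2.0.1), SAMtools (1.13) and HISAT2 (2.1.0). The sources used here do not name a build, an annotation or a strand setting. The deposited signal values are normalised counts: per the file headers, and as the values themselves show, the authors divided counts by 1 factor per library, and 100% were whole multiples of 1 number per library within 0.001. The authors' deposited log2 fold changes, test scores and p-values were copied. Without counts as deposited, the planned count test was not the one used: log2(normalised count + 1) was fitted with limma 3.58.1 (R 4.3.3), 1 mean per dose, intensity trend, 8 residual degrees of freedom, for 8455 genes with at least 10 in at least 3 libraries. Tests were two-sided, Benjamini-Hochberg adjusted over those genes, threshold 0.05, and tested on simulated data. Fold changes are on that log2 scale ± SE and understate low genes. Exon lengths came from Ensembl 115 (BDGP6.54).

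Members and lists were chosen with earlier results of these data known. Library values are given for the 10 members with the smallest adjusted p, the highest and lowest fold change of each role, and members nearest the minimum; for list genes, up to 3 called ones per list at 2000 nM. REG, Ubi-p5E, ago, fzy and all averages of other genes were added after their values were seen. Same-numbered libraries correlated from -0.367 to 0.396 in their deviations, not all above 0.1 in any comparison, so numbers were not taken as pairs.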

Additional observations from a re-analysis of the deposited data

How the results depend on the processing

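Across 10 other settings and 12 single left-out libraries, 576 of 615 counts and medians stayed within limits (1.5 times for a count, 1 SD between libraries, 0.07 on the log2 scale, for a median). The median limit is wider than the medians of 200 nM against 20 nM (0.03) and 2000 nM against 200 nM (0.05). The first of these reached -0.01 with 1 library left out and still counted as within limits. Counts of 0 that stayed at 0 are also included, so the 576 does not show that the small medians are firm. Of 484 values of called single genes, 414 kept their call, 70 lost it and 0 reversed. Members called at 2000 nM against 0 nM were 4 with no minimum, 5 after TMM rescaling, 5 with equal library totals, 5 without the intensity trend and 2 with only both doses fitted; leaving out 1 library gave 2 to 9. Members called at 200 nM against 0 nM were 1 with a minimum of 50, and 0 to 2 with 1 library left out. At 2000 nM against 20 nM they were 0 to 1 with 1 library left out. At 200 nM against 0 nM and 2000 nM against 20 nM, each lay below the share of all genes that rose in that fit. At 2000 nM against 0 nM the counts lay on both sides of that share. The F test called 0 after TMM rescaling, 0 with equal totals and 0 without the trend, and 0 to 1 with 1 library left out. With equal totals, 1 assembly factor or activator and 8 SCF and APC/C genes (2 rose, 6 fell) were called at 2000 nM. In that fit 1181 of the 8455 tested genes rose and 1477 fell. With 1 library left out, the lists gave 0 to 1 (assembly factors), 0 to 1 (ubiquitin genes) and 4 to 6 (ligases) at 2000 nM, and 1 to 4 (ligases) at 200 nM. In these fits 964 to 1346 of the 8455 tested genes rose and 983 to 1341 fell at 2000 nM. At 200 nM 697 to 876 rose and 697 to 918 fell. Replicate numbers were not taken as pairs: each comparison had 1 of 3 numbers that correlated best with itself. That number was replicate 1 in every comparison with 0 nM and replicate 3 in the others. Among the 34 members, replicate 1 was the lowest of its dose for 26 at 0 nM and 30 at 20 nM. It was the lowest for 21 at 2000 nM, but only for 10 at 200 nM. Whether the replicate 1 libraries share a shift in the members was not tested. With the replicate block, 4 members were called at 200 nM (11.8%, beside 11.7% of all tested genes that rose). At 2000 nM 13 were called (38.2%, beside 18.0%), and at 2000 nM against 20 nM 1 (2.94%, beside 10.9%). The F test called 3, and its share over all tested genes in this fit is not given here. The lists gave 2 assembly factors, 9 ligases at 2000 nM and 5 at 200 nM, and 2 regulators at 20 nM. Of the 8455 tested genes, 1522 rose and 1554 fell at 2000 nM in this fit. At 200 nM 989 rose and 1062 fell, and at 20 nM 289 rose and 168 fell. The cause of each shift in these counts was not tested. limma-voom on recovered reads called 10 members at 2000 nM (29.4%, beside 17.1% of all genes that rose), 9 of them the same genes. The planned edgeR and DESeq2 fits were not run, since no deposited column holds raw counts. Depth limits Prosalpha1 and both paralogues, whose SE was 0.21 to 0.45 against about 0.05 to 0.10 for the other 31.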

Other observations

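A pair of other multi-subunit complexes, chosen after the proteasome values were seen, gave values for comparison. The COP9 signalosome, which resembles the proteasome lid and regulates SCF ligases, had 8 tested genes at 2000 nM against 0 nM. Of these limma called 0, beside 31.0% of all tested genes, and 2 had an unadjusted p under 0.05, beside 41.2%. Their log2 fold changes ran from -0.20 for CSN4 to 0.25 for CSN8, with a median of 0.06. Of the 8, 5 lay above 0, beside 49.4% of all tested genes. The CCT chaperonin, which folds actin and tubulin, had 8 tested genes. Of these limma called 0, beside 31.0% of all tested genes, and 0 had an unadjusted p under 0.05, beside 41.2%. Their log2 fold changes ran from -0.10 for CCT2 to 0.03 for CCT1, with a median of -0.04. Of the 8, 2 lay above 0, beside 49.4% of all tested genes. Whether either complex differed from the proteasome members was not tested.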
